A study of Mus musculus with 15 samples.

Results

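The endoplasmic reticulum (ER) folding, translocation and degradation genes are 39 genes for the protein-folding machinery of the secretory pathway. The rule that selects them uses gene names alone: each is an entry of the deposited expression table whose gene name is on a list of chaperones, disulfide isomerases, ER degradation factors, stress sensors, translocation channel subunits and signal peptidase subunits. All 39 names, which the table writes in capitals (HSPA5, HSP90B1, SEL1L), were found among 32434 entries. Expression was measured by RNA sequencing in 5 cell lines named IL6Myc-1 to IL6Myc-5, all with the genotype IL6Myc and all established from IL6Myc mice, an animal model of the plasma cell cancer multiple myeloma. Every line was sequenced as 3 technical replicate libraries (15 in total), and no treatment and no normal plasma cell control was included. Each line is therefore 1 biological unit, p-values measure the spread between technical libraries only, and differences between lines cannot be told apart from differences between single cultures. Neither the promoters that drive the transgenes nor the way the lines were established is given in the labels.

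Proteins bound for secretion enter the ER through the Sec61 channel, lose their signal peptide to signal peptidase, and fold with the help of chaperones and disulfide isomerases. Chains that do not fold are recognised by lectins, passed to a membrane ubiquitin ligase and degraded in the cytosol, a route called ER-associated degradation (ERAD). When unfolded proteins build up, the sensors IRE1 (Ern1), PERK (Eif2ak3) and ATF6 start the unfolded protein response, which raises many of these same genes. Plasma cells secrete large amounts of antibody and are known for a greatly expanded ER that depends on XBP1, the transcription factor made through IRE1.

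Many promoters of this response carry the ER stress response element (ERSE), a CCAAT box bound by NF-Y and a CCACG end bound by ATF6 or XBP1, separated by 9 bases. The window from 250 bases before to 50 bases after the gene start was available from RefSeq (GRCm38.p6) for 31 of the 39 genes, and was searched on both strands for 3 letter patterns. The patterns were the ERSE (CCAAT, any 9 bases, CCACG), the shorter ERSE-II (ATTGG, any 1 base, CCACG) and the XBP1 element TGACGTGG. In these promoters no match of 1 pattern overlapped a match of another. Hyou1, Manf, Derl1, Erlec1, Atf6, Sec61a1, Ssr2 and Spcs3 had no entry in the promoter table used here. An ERSE was found in 9 of the 31 promoters (29.0%), against 37 of 27025 genes with a promoter in the table (0.137%). An ERSE-II was found in 2 of 31 (6.45%), against 12 of 27025 genes (0.0444%). TGACGTGG was found in 0 of 31, against 193 of 27025 genes (0.714%). These are letter matches, and no binding was measured.

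The matches in the ERAD genes and the J-domain cochaperones are shown first, because Derl3 and Dnajc3 differed most between the lines. Capitals mark the fixed letters of the pattern, flanking and spacer bases are in lower case, and each sequence reads 5′ to 3′ on the strand that carries the pattern.
Derl3, chr10:75893234-75893268, minus strand: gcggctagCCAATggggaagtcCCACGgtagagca
Dnajc3, chr14:118937819-118937853, plus strand: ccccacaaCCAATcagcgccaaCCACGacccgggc
Syvn1, chr19:6046524-6046558, plus strand: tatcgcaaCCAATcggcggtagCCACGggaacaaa
Herpud1, chr8:94386369-94386395, plus strand: gggcgctgATTGGgCCACGttggacac
Dnajb11, chr16:22857844-22857870, plus strand: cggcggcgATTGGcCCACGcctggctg

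The chaperones and folding enzymes with an ERSE are shown next. Hsp90b1 carried 2 copies on opposite strands, and Canx, the gene that varied least between the lines, carried the same letters as the others.
Hspa5, chr2:34772017-34772051, plus strand: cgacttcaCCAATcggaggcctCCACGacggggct
Hsp90b1, chr10:86705630-86705664, minus strand: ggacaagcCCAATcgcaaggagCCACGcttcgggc
Hsp90b1, chr10:86705525-86705559, plus strand: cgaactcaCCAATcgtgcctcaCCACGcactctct
Creld2, chr15:88819512-88819546, minus strand: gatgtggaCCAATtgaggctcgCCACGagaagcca
Pdia6, chr12:17266483-17266517, plus strand: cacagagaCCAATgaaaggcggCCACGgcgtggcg
Calr, chr8:84847067-84847101, plus strand: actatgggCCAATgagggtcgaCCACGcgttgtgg
Canx, chr11:50325792-50325826, minus strand: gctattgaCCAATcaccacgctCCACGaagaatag

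**Figure D1:**
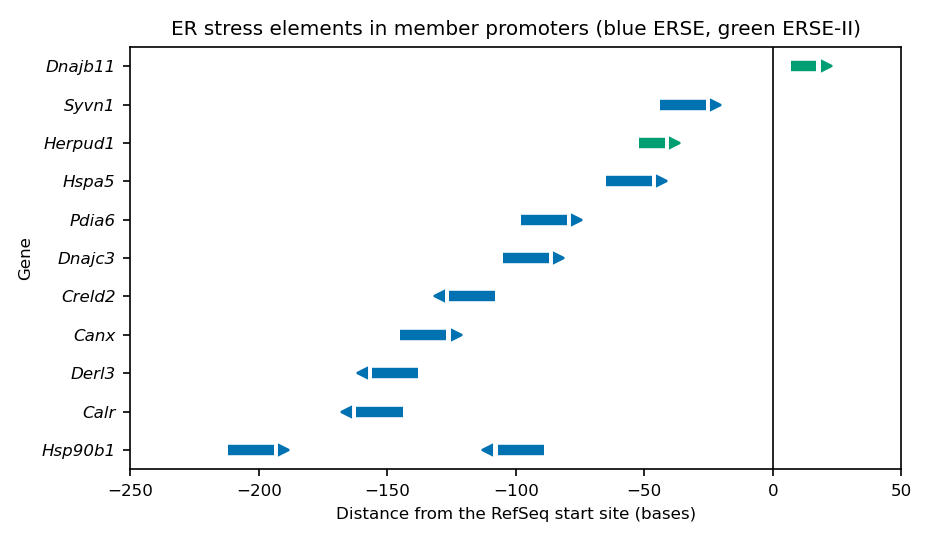
Positions of the matches to the ERSE and the ERSE-II in the promoters of 11 genes, on a horizontal axis in bases from the RefSeq start site (0), with 1 row per gene. Bars span the match, in blue for ERSE and green for ERSE-II, and arrowheads give its orientation. The ERSE of Derl3 spans -156 to -138, those of Hsp90b1 -212 to -194 and -107 to -89, and the ERSE-II of Dnajb11 lies past the start at 7 to 17.

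Most ERSE matches lay within the 200 bases before the gene start. The nearest belonged to Syvn1, at -44 to -26, and to the BiP gene Hspa5, at -65 to -47. Derl3, Creld2, Calr and the nearer copy of Hsp90b1 had the orientation opposite to the gene. For contrast with Derl3, the 250 bases before the start of Sel1l hold no match to any of the 3 patterns. Both stretches are printed on the gene's strand because Derl3 and Sel1l were the members called higher in IL6Myc-2. Capitals in Derl3 mark the fixed ERSE letters, which read there as their reverse complement.
Derl3, chr10:75893148-75893397, plus strand: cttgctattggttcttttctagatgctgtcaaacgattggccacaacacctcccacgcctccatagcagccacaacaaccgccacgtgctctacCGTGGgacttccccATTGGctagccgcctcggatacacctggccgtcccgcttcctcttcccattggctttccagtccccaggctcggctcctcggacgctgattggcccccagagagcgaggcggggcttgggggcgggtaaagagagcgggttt
Sel1l, chr12:91849158-91849407, minus strand: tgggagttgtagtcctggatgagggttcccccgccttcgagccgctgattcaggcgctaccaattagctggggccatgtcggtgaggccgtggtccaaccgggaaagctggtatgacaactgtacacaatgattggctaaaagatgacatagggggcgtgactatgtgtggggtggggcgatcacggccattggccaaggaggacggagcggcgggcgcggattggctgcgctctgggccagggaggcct

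The libraries held 19068543 to 41165599 estimated counts. Levels are CPM, counts relative to a library's size after TMM scaling, which sets most genes level between libraries. A value with ± is the mean and SD (n = 3) of the libraries of 1 line unless it is marked SE. Immunoglobulin genes took 11.5% of the counts in IL6Myc-2 and 4.91% to 6.67% in the other lines, and TMM factors ran from 0.848 to 1.08. All 9 plasma cell markers listed were expressed, with a summed level of 45612 to 65159 CPM in 4 lines and 109474 to 111911 CPM in IL6Myc-2. Most of that sum was Igha, Igkc and Jchain. In IL6Myc-2 Sdc1 had 284 ± 9.1 CPM, Xbp1 1573 ± 34 CPM and Prdm1 167 ± 5.5 CPM, each the lowest mean of the lines, and Irf4 had 977 ± 8.3 CPM, between the other lines. Pou2af1 had its highest mean there, 1625 ± 50 CPM. Of 12 myeloid markers 5 were expressed, summing to 726 to 786 CPM in IL6Myc-4 and 146 to 338 CPM elsewhere, with S100a8 at 0 in all lines. Of 8 mature B cell markers 3 were expressed (244 to 750.2 CPM). T and NK cell markers reached at most 44.3 CPM with Gzmb and Ncr1 at 0, and stromal and endothelial markers 27.1 CPM with Cdh5, Cxcl12 and Kdr at 0.

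The 39 genes were expressed in every line. To compare genes, levels were divided by the length of the longest annotated coding transcript. This takes the values as not already corrected for length, and which transcript was expressed was not examined. On that scale Hsp90b1 (GRP94, the ER form of Hsp90) was the most abundant, with a mean over lines of 5158 CPM per kb. Hspa5 (BiP, the main ER Hsp70) followed at 1038 CPM per kb, then the disulfide isomerases P4hb at 998 and Pdia6 at 967 CPM per kb. The sensors Ern1 and Eif2ak3 lay near the other end, at 22.9 and 22.4 CPM per kb, and the channel subunit Sec61g was lowest at 11.3 CPM per kb. Summed over the 39 genes, the level in CPM was 32841 ± 392 for IL6Myc-1, 46169 ± 511 for IL6Myc-2, 48198 ± 215 for IL6Myc-3, 41268 ± 209 for IL6Myc-4 and 40109 ± 1018 for IL6Myc-5. Hsp90b1 made up 31.7% to 32.6% of that sum in 4 lines and 43.6% in IL6Myc-3. Without Hsp90b1 the sums were 22263 CPM for IL6Myc-1, 31098 CPM for IL6Myc-2 and 27167 to 27823 CPM in the other 3 lines.

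In edgeR's quasi-likelihood F-test over the 5 lines, 9 of the 39 genes (23.1%) were called, which takes a Benjamini-Hochberg adjusted p under 0.05 and a range over the lines of 1 log2 unit or more. They were the ERAD genes Derl3, Sel1l, Herpud1 and Edem2, the sensors Ern1 and Eif2ak3, the cochaperone Dnajc3, the isomerase P4hb and the translocon-associated subunit Ssr4. The same rule called 32.1% of the 11773 genes tested, and 14.9% of the 6507 genes at least as abundant as the lowest of the 39. The median range between lines was 0.69 log2 units for the 39 genes, 0.70 for all genes tested and 0.54 for genes of that abundance. Among genes of at least 500 CPM the order was the other way: 2 of 18 members were called, with a median range of 0.65, against 20.9% of 263 genes, with a median of 0.73. At any size, 38 of the 39 passed the adjusted p, against 91.7% of all genes. Canx was the exception. On library totals without TMM, 7 were called, 5 of them the same. Sel1l, Herpud1, Edem2 and Ssr4 had ranges of 0.92, 0.85, 0.91 and 0.77 there, while Hsp90b1 and Ssr2 passed the threshold. Over all genes, 4259 were called under that scaling, against 3783 with TMM. In bulk RNA, fewer cells with a transcript and less of it per cell cannot be told apart.

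**Figure D2:**
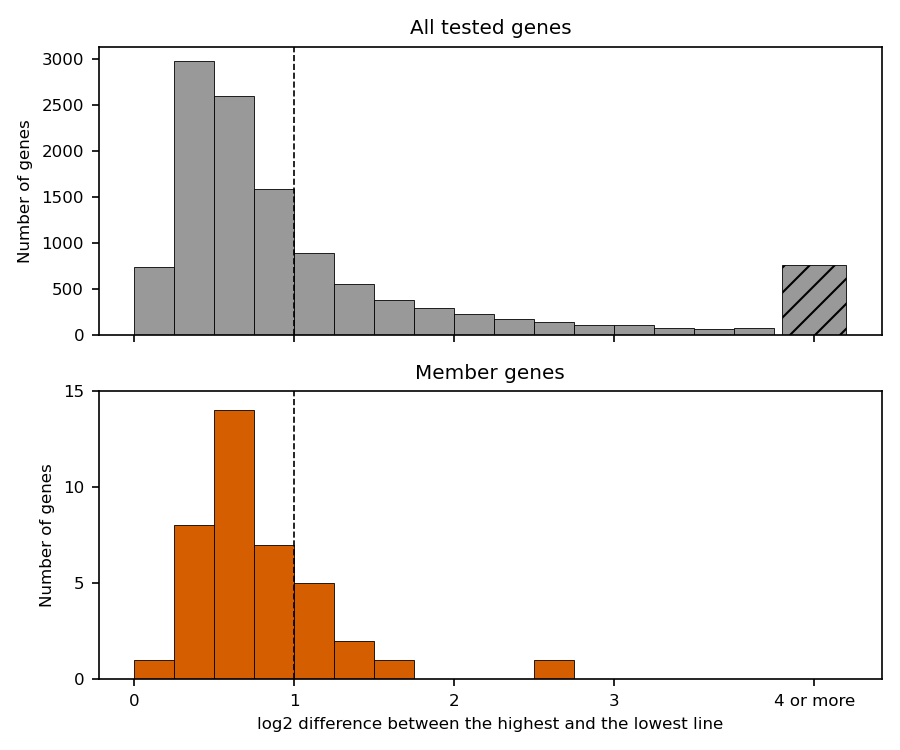
Histograms of the log2 range over the line means, for all 11773 tested genes and for the 39 ER genes, with a dashed line at the threshold of 1 and, in the upper panel, a hatched bar for ranges of 4 or more. The 9 called genes lie to the right of the threshold, and Derl3 lies farthest out at 2.59.

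The ERAD gene Derl3 had the widest range of the 39, while the 11 ERAD genes had a median range of 0.73, against 1.28 for the 3 sensors and 0.75 for the 9 chaperones. Derl3, a derlin of the retrotranslocation channel that is strong in secretory cells, gave 55.2, 55.9 and 60.4 CPM in the libraries of IL6Myc-1, 352, 343 and 338 in IL6Myc-2, 179, 173 and 180.2 in IL6Myc-3, 132, 135 and 139 in IL6Myc-4 and 165, 145 and 145 in IL6Myc-5. IL6Myc-1 was lowest and IL6Myc-2 highest, with no overlap between any of the lines. The range was 2.59 log2 units, or 6.02-fold (edgeR F-test, adjusted p = 1.61e-15). Against the mean of the other 4 lines, the log2 difference was -1.72 ± 0.04 (SE; adjusted p = 6.6e-15) in IL6Myc-1 and 1.52 ± 0.04 (SE; adjusted p = 1.14e-15) in IL6Myc-2 by edgeR. The relatives Derl1 and Derl2 had smaller ranges of 0.64 and 0.57, both with their lowest level in IL6Myc-5.

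Sel1l encodes the adaptor that holds the HRD1 ubiquitin ligase complex together. The level was 1028, 985 and 1006 CPM in the libraries of IL6Myc-1, 2187, 2153 and 2163 in IL6Myc-2, 993, 1008 and 1017 in IL6Myc-3, 944, 965 and 900.1 in IL6Myc-4 and 983, 1045 and 950.1 in IL6Myc-5. IL6Myc-2 stood alone on the high side, while each of the other 4 lines overlapped its neighbour in the order of levels. Sel1l was higher in IL6Myc-2 by a log2 difference of 1.14 ± 0.03 (SE; adjusted p = 1.82e-15) in edgeR. Its partner Syvn1, the HRD1 ligase itself, was highest in the same line at 382 ± 6.9 CPM and lowest in IL6Myc-1 at 234 ± 12 CPM, a range of 0.71 that did not reach the size threshold.

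Herpud1, a stress-induced scaffold of the same ligase complex, gave 132, 129 and 139.9 CPM in the libraries of IL6Myc-1, 275, 286 and 276 in IL6Myc-2, 164, 164 and 164 in IL6Myc-3, 173, 170.3 and 174 in IL6Myc-4 and 254, 249.6 and 257 in IL6Myc-5. No 2 lines overlapped, and IL6Myc-5 lay next to IL6Myc-2 at the high end. The range was 1.06 (edgeR F-test, adjusted p = 1.4e-13). Edem2, which starts the trimming of mannose from misfolded glycoproteins, gave 281, 292 and 299 CPM in the libraries of IL6Myc-1, 596, 624 and 601 in IL6Myc-2, 429.9, 408 and 431 in IL6Myc-3, 538, 525 and 536 in IL6Myc-4 and 518, 479 and 493 in IL6Myc-5. IL6Myc-1 was again lowest, IL6Myc-2 highest, and no lines overlapped. The range was 1.06 (edgeR F-test, adjusted p = 2.26e-12).

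Edem1, a relative that also acts on mannose trimming, followed another order. It was highest in IL6Myc-1, whose libraries (1927, 1941 and 2042 CPM) lay above all others, and its log2 difference there was 0.56 ± 0.04 (SE; adjusted p = 9.79e-10) in edgeR, against -0.81 ± 0.03 (SE; adjusted p = 1.36e-12) for Edem2. Edem3 ranged from IL6Myc-5 (354 ± 31 CPM) up to IL6Myc-3 (464 ± 7.2 CPM). The lectins Os9 and Erlec1, which read trimmed glycans for the ligase, were both lowest in IL6Myc-1. Os9 was highest in IL6Myc-2 at 505 ± 6.7 CPM and Erlec1 in IL6Myc-4 at 259 ± 6.0 CPM. Of the 11 ERAD genes, 4 were called in the F-test, against 32.1% of all genes tested and 14.9% of genes of similar abundance. Whether the ERAD count differs from these shares was not tested.

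**Figure D3:**
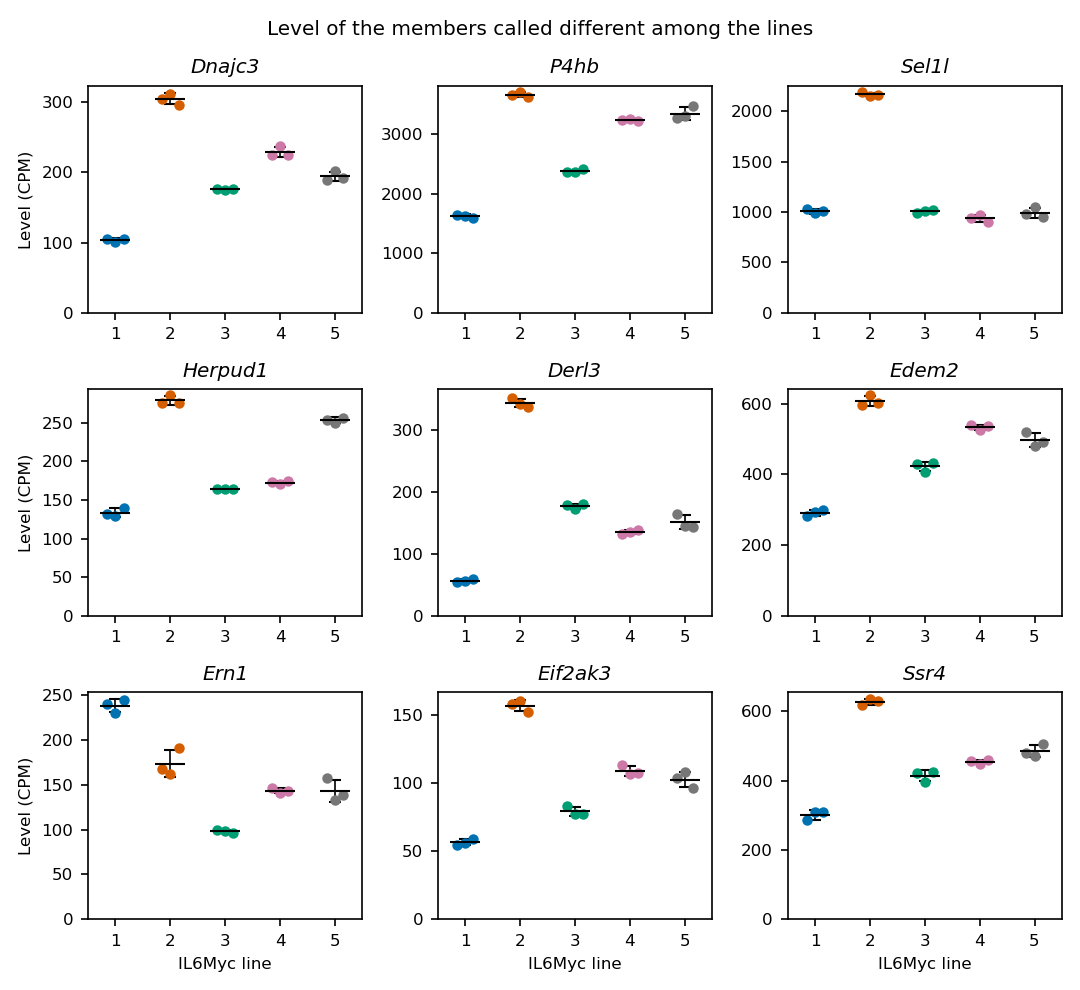
CPM of the 9 genes called in the F-test, 1 panel per gene with its own vertical axis from 0, with 1 point per library and a horizontal line and bars for the mean and SD of each cell line. IL6Myc-1 is the lowest line in 7 of the 9 panels, and the exceptions are Sel1l and Ern1.

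The stress sensors did not move together. Ern1 encodes IRE1, the kinase and RNase that splices Xbp1, and gave 241, 230.3 and 244 CPM in the libraries of IL6Myc-1, 168, 162 and 191 in IL6Myc-2, 99.4, 98.4 and 96.2 in IL6Myc-3, 146, 141 and 143 in IL6Myc-4 and 157, 133 and 138 in IL6Myc-5. IL6Myc-1 was highest and IL6Myc-3 lowest, both clear of every other line. The log2 difference was 0.80 ± 0.04 (SE; adjusted p = 1.17e-10) in IL6Myc-1 and -0.80 ± 0.05 (SE; adjusted p = 1.21e-09) in IL6Myc-3, by edgeR, and the range was 1.28. Eif2ak3 encodes PERK, the kinase that slows translation under stress, and gave 54.9, 55.8 and 59.1 CPM in the libraries of IL6Myc-1, 159, 161 and 153 in IL6Myc-2, 82.9, 77.5 and 77.6 in IL6Myc-3, 114, 107 and 108 in IL6Myc-4 and 104, 108 and 96.6 in IL6Myc-5. The lowest line was IL6Myc-1, where Ern1 was highest, and the highest was IL6Myc-2. In edgeR the Eif2ak3 log2 difference was -0.94 ± 0.04 (SE; adjusted p = 4.34e-12) in IL6Myc-1 and 0.90 ± 0.04 (SE; adjusted p = 1.35e-12) in IL6Myc-2. Atf6, the sensor that is cut in the Golgi to release a transcription factor, gave 426, 393 and 398 CPM in the libraries of IL6Myc-1, 427, 433 and 424 in IL6Myc-2, 384, 380.1 and 377 in IL6Myc-3, 412, 413 and 389 in IL6Myc-4 and 355, 389 and 336 in IL6Myc-5. Its lines overlapped at most steps of the order, and its range was 0.25 (edgeR F-test, adjusted p = 0.00108), among the 3 smallest of the 39.

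All 9 chaperones and cochaperones had a negative log2 difference in IL6Myc-1 against the other 4 lines, with a median of -0.52. In IL6Myc-2, 8 of 9 were positive, with a median of 0.24. Over all genes tested, 50.5% were above 0 in IL6Myc-1 and 48.9% in IL6Myc-2. Only Dnajc3 was called, in the F-test and lower in IL6Myc-1, against 32.1% and 8.11% of all genes. Dnajc3 (p58IPK) is a J-domain cochaperone of BiP also known as an inhibitor of eIF2 alpha kinases, and gave 105, 101 and 105 CPM in the libraries of IL6Myc-1, 305, 312 and 297 in IL6Myc-2, 176, 175 and 176 in IL6Myc-3, 224, 237 and 225 in IL6Myc-4 and 189.7, 202 and 191 in IL6Myc-5. No lines overlapped, from IL6Myc-1 at the low end to IL6Myc-2 at the high end. In edgeR its log2 difference in IL6Myc-1 was -1.09 ± 0.03 (SE; adjusted p = 2.66e-14).

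Hspa5 ran from IL6Myc-1 (3102 ± 65 CPM) up to IL6Myc-2 (4729 ± 17 CPM), a range of 0.61. Hsp90b1 was highest in IL6Myc-3 at 21031 ± 54 CPM and lowest in IL6Myc-1 at 10578 ± 277 CPM. Its range of 0.99 lay just under the threshold of 1 and passed it with DESeq2 size factors (1.005), in DESeq2 (1.002) and without the first library of IL6Myc-1 (1.011). The edgeR log2 difference of Hsp90b1 in IL6Myc-3 was 0.71 ± 0.03 (SE; adjusted p = 1.46e-12). Creld2, an EGF-repeat protein induced by ER stress, came next under the threshold with a range of 0.94, from IL6Myc-1 (534 ± 16 CPM) up to IL6Myc-2 (1022 ± 27 CPM). The smallest of the called ranges, that of Ssr4, Herpud1 and Edem2, was 1.06. Hyou1, the exchange factor of BiP, had its lowest level in IL6Myc-1 and its highest in IL6Myc-2, with a range of 0.75. Dnajb11, the ERdj3 cochaperone, ran from IL6Myc-5 (659 ± 13 CPM) up to IL6Myc-3 (979 ± 11 CPM). Dnajb9 (ERdj4), Sdf2l1 and Manf had their lowest mean in IL6Myc-1 and ranges of 0.59, 0.78 and 0.49.

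P4hb, the classical protein disulfide isomerase, was the called gene among the 4 isomerases and gave 1649.7, 1634 and 1599 CPM in the libraries of IL6Myc-1, 3669.8, 3709.9 and 3629 in IL6Myc-2, 2362, 2372 and 2411 in IL6Myc-3, 3241, 3252 and 3223 in IL6Myc-4 and 3270.3, 3307 and 3471 in IL6Myc-5. IL6Myc-1 lay well below the rest, IL6Myc-3 next, and no lines overlapped. The range was 1.17, or 2.25-fold (edgeR F-test, adjusted p = 1e-14). Pdia3 (ERp57), the isomerase that works with calnexin and calreticulin, varied little and gave 1276, 1224 and 1189 CPM in the libraries of IL6Myc-1, 1173, 1237 and 1169 in IL6Myc-2, 1367, 1363 and 1358 in IL6Myc-3, 1487, 1533 and 1449.7 in IL6Myc-4 and 1302, 1400.4 and 1391 in IL6Myc-5. Its range was 0.32, with IL6Myc-4 above the other lines and IL6Myc-1 and IL6Myc-2 overlapping (edgeR F-test, adjusted p = 4.58e-06). Pdia6 ran from IL6Myc-1 (1558 ± 37 CPM) up to IL6Myc-5 (2518 ± 45 CPM) and Pdia4 from IL6Myc-1 (833 ± 5.2 CPM) up to IL6Myc-3 (1070.5 ± 5.8 CPM).

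The lectin chaperones behaved differently from each other. Canx (calnexin), bound to the ER membrane, gave 942, 919 and 937 CPM in the libraries of IL6Myc-1, 876, 921 and 917 in IL6Myc-2, 929, 933 and 934 in IL6Myc-3, 955, 972 and 925 in IL6Myc-4 and 946, 956 and 904 in IL6Myc-5. Neighbouring lines overlapped at 3 of the 4 steps, and the range was 0.07 log2 units (edgeR F-test, adjusted p = 0.363). Its soluble counterpart Calr (calreticulin) ran from IL6Myc-1 (1336 ± 26 CPM) up to IL6Myc-4 (2124 ± 45 CPM), with both of those lines clear of the others. Both promoters hold an ERSE.

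Of the 7 channel genes, Ssr4, a subunit of the translocon-associated protein complex next to Sec61, was called. The level was 285, 310.2 and 309 CPM in the libraries of IL6Myc-1, 618, 637 and 628 in IL6Myc-2, 421, 397 and 424 in IL6Myc-3, 456, 449 and 458 in IL6Myc-4 and 479.7, 471 and 504 in IL6Myc-5. IL6Myc-1 was lowest and IL6Myc-2 highest, with no overlap between lines, and the range was 1.06 (edgeR F-test, adjusted p = 7.81e-12). The other subunits of that complex peaked elsewhere or varied less. Ssr2 was highest in IL6Myc-4 at 1173 ± 33 CPM, Ssr1 was highest in the same line at 621 ± 68 CPM, and Ssr3 was highest in IL6Myc-2 at 799 ± 25 CPM. In the channel itself, the pore subunit Sec61a1 ran from IL6Myc-4 (431 ± 12 CPM) up to IL6Myc-5 (604 ± 15 CPM), and Sec61b from IL6Myc-1 (114 ± 5.1 CPM) up to IL6Myc-2 (207 ± 2.5 CPM). Sec61g, the least abundant of the 39, had overlapping neighbours throughout and a range of 0.51. The signal peptidase subunits Spcs1, Spcs2 and Spcs3 had ranges of 0.40, 0.50 and 0.81, and Spcs3 was highest in IL6Myc-5 at 359.8 ± 4.8 CPM.

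**Figure D4:**
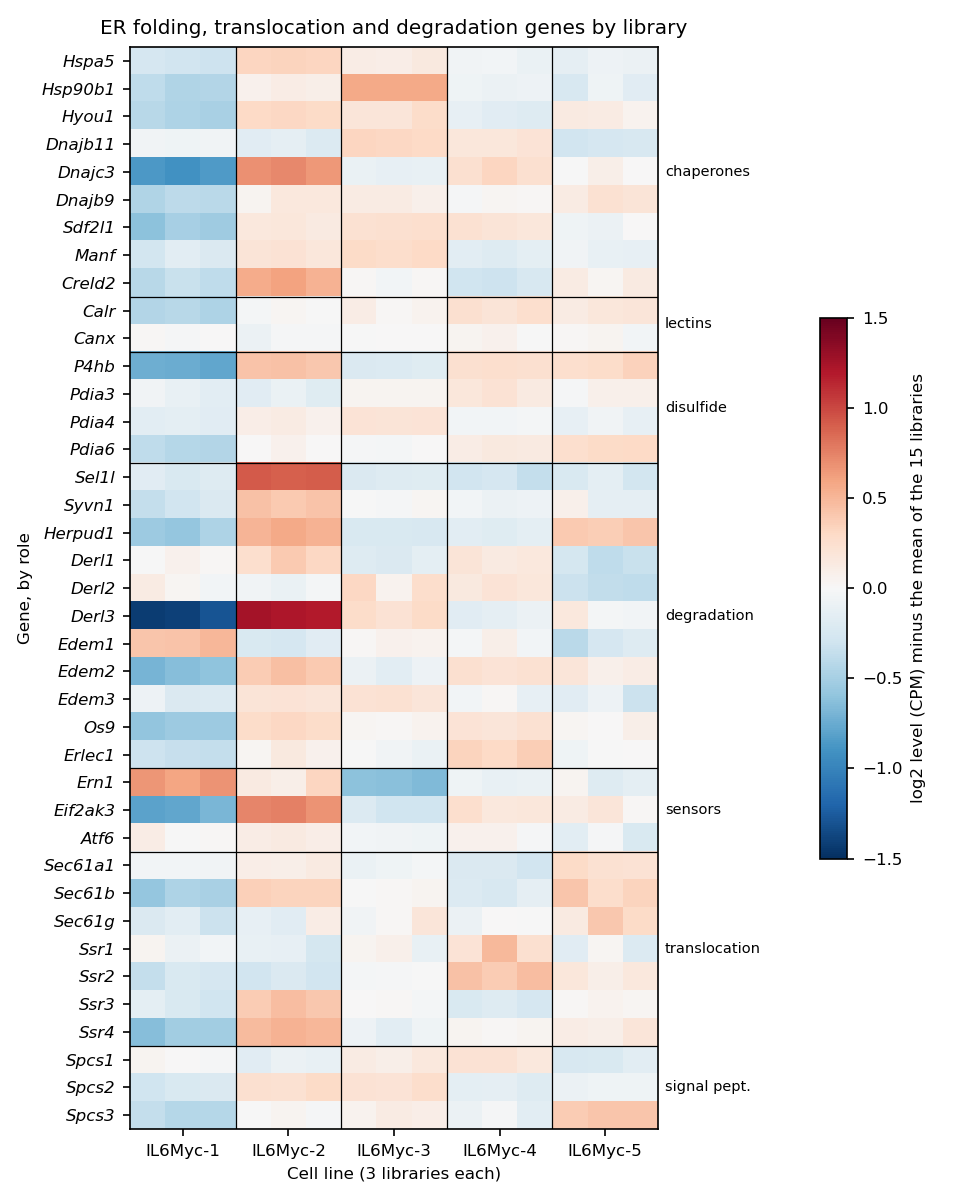
Heatmap of the 39 genes in rows, grouped by role, and the 15 libraries in columns, grouped by line. Colour gives log2 CPM minus the gene's mean over all libraries, from blue for low to red for high. The column block of IL6Myc-1 is mostly blue, that of IL6Myc-2 mostly red, and Ern1 and Edem1 are red in IL6Myc-1.

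Set against the mean of the other 4 lines, IL6Myc-1 had 2 genes called lower, Derl3 and Dnajc3, and 0 called higher, by edgeR. Over all genes tested 8.11% were called lower in IL6Myc-1 and 4.39% higher. The 2 lower calls are 5.13% of the 39, too few to be told apart from that share. The share of such calls among genes of similar abundance was not computed. At an unadjusted p under 0.05 and any size, 31 of the 39 were lower and 2 higher. The share over all genes was not computed at that cutoff. At an adjusted p under 0.05 and any size, 32 of the 39 differed, against 8034 of the 11773 genes tested. The median log2 difference of the 39 was -0.35, with 7 above 0, and that of all genes was 0.01, with 50.5% above 0. All 3 libraries of IL6Myc-1 lay below the 12 others for 22 of the 39 genes (56.4%), against 13.5% of all genes and 14.5% of genes of similar abundance. IL6Myc-1 was likewise highest for 2 genes, Edem1 and Ern1, against 14.5% of all genes. Its differences were thus frequent and mostly under the size threshold.

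IL6Myc-2 had 2 genes called higher by edgeR, Derl3 and Sel1l, and 0 called lower, against 8.60% higher and 4.08% lower over all genes. The 2 higher calls are again too few to be told apart from the share over all genes. At an unadjusted p under 0.05, 27 of the 39 were higher and 6 lower, and the share over all genes was not computed there. At an adjusted p under 0.05 and any size, 33 of the 39 differed, against 7720 of the 11773 genes tested. The median log2 difference of the 39 was 0.23, with 29 of 39 above 0. That of all genes was -0.01, with 48.9% above 0. All 3 libraries of IL6Myc-2 lay above the 12 others for 15 genes (38.5%), against 13.8% of all genes, and below them for 0, against 11.2%. This direction depended on the scaling. On library totals without TMM, the median of the 39 in IL6Myc-2 was -0.05 while that of all genes was -0.29, and IL6Myc-2 was highest for 7 of the genes and lowest for 6, against 6.51% and 31.2% of all genes. Under that scaling IL6Myc-1 was lowest for 21 of 39, against 10.4% of all genes, with a median of -0.27 against 0.08 for all genes. Derl3 was still called higher in IL6Myc-2 (1.24), and the log2 difference of Sel1l was 0.85. The immunoglobulin share, at 11.5% of counts, was highest in the same line. Of the 9 plasma cell markers, Igha, Igkc, Jchain and Pou2af1 had their highest mean there. Sdc1, Xbp1, Prdm1 and Tnfrsf17 had their lowest mean there, and Irf4 lay between the other lines. Leaving immunoglobulin genes and Rn18s out of the TMM scaling left the counts of genes highest and lowest at 15 and 0.

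IL6Myc-3, IL6Myc-4 and IL6Myc-5 had 0 of the 39 called in either direction by edgeR, and 0 in DESeq2 and limma as well. The background of such calls over all genes was 4.60% higher and 3.05% lower in IL6Myc-3, 5.28% and 4.37% in IL6Myc-4, and 4.80% and 3.19% in IL6Myc-5. At an unadjusted p under 0.05, 26 of the genes differed in IL6Myc-3 and 30 in each of the other 2 lines, in both directions. The share over all genes was not computed at that cutoff. At an adjusted p under 0.05 and any size, 25, 29 and 29 of the 39 differed in the 3 lines. Over all 11773 genes tested, 6309, 6593 and 6456 did. IL6Myc-3 was highest without overlap for Dnajb11, Hsp90b1, Manf and Pdia4 (5.90% of all genes), all chaperones or isomerases, and lowest for Ern1 (5.14%). IL6Myc-4 was highest for Calr, Erlec1, Pdia3, Ssr1 and Ssr2 (9.05%) and lowest for Sec61a1 (6.72%). The summed myeloid markers were also highest in IL6Myc-4, mostly through C1qb (490.4 ± 26 CPM), while Itgam, Cd68 and Fcgr4 were higher in IL6Myc-2. Their part in these levels was not tested. IL6Myc-5 was highest for Pdia6, Sec61a1 and Spcs3 (6.41%) and lowest for Derl1, Derl2 and Dnajb11 (4.99%). The medians of the 39 in these lines were 0.03, 0.01 and 0.04.

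**Figure D5:**
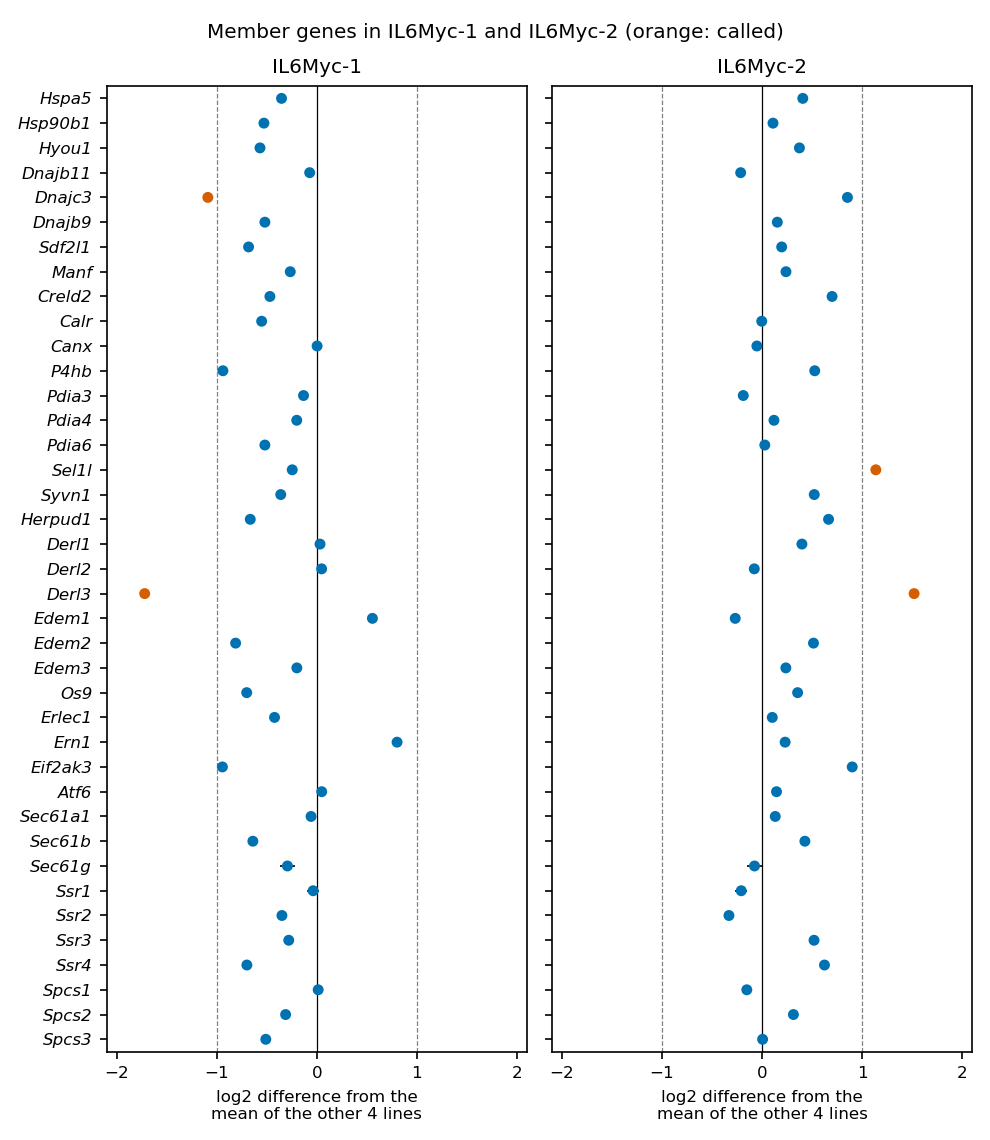
Log2 difference of IL6Myc-1 (left panel) and IL6Myc-2 (right panel) from the mean of the other 4 lines, with 1 row per gene, bars for the SE (mostly hidden by the points), dashed lines at the threshold of 1 and orange points for called genes. Points lie left of 0 for 32 of 39 genes in IL6Myc-1 and right of 0 for 29 of 39 in IL6Myc-2. Over all genes tested (not drawn), 50.5% were above 0 in IL6Myc-1 and 48.9% in IL6Myc-2.

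Comparisons of single pairs share their libraries with those above. IL6Myc-1 and IL6Myc-2 differed most: 8 of the 39 genes were called lower in IL6Myc-1 (12.3% of all genes) and 0 higher (6.71%), and at an unadjusted p under 0.05 the counts were 28 and 4. The log2 differences by edgeR were -2.59 ± 0.05 (SE) for Derl3, -1.56 ± 0.04 for Dnajc3 and -1.48 ± 0.05 for Eif2ak3. P4hb, Sel1l, Herpud1, Edem2 and Ssr4 followed, between -1.17 and -1.06. Between IL6Myc-1 and IL6Myc-3, Derl3 was called lower in IL6Myc-1 (7.36% of all genes) and Ern1 higher (3.99%), with log2 differences of -1.64 ± 0.05 and 1.28 ± 0.06. Derl3 and Dnajc3 were called lower in IL6Myc-1 than in IL6Myc-4 (9.79%), and Derl3 and P4hb lower than in IL6Myc-5 (8.95%). IL6Myc-2 exceeded IL6Myc-3 in Sel1l (8.59%), and exceeded IL6Myc-4 (8.32%) and IL6Myc-5 (7.36%) in Derl3 and Sel1l. Among IL6Myc-3, IL6Myc-4 and IL6Myc-5, 0 of the 39 were called in any pair by edgeR, against 11.5% of all genes between IL6Myc-3 and IL6Myc-4, 9.86% between IL6Myc-3 and IL6Myc-5 and 11.3% between IL6Myc-4 and IL6Myc-5. At an unadjusted p under 0.05, 29 to 32 of the 39 differed in these pairs. Shares over all genes at that cutoff were not computed for any pair, so these counts are not read as a result about the list.

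Called against each of the other 4 lines in turn, Derl3 was lower in IL6Myc-1 (3.20% of all genes meet this in that line and direction) and Sel1l was higher in IL6Myc-2 (3.09%). Dnajc3 in IL6Myc-1 missed this because its log2 difference was -0.76 from IL6Myc-3 and -0.90 from IL6Myc-5. Derl3 in IL6Myc-2 missed it because its difference from IL6Myc-3 was 0.96.

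Genes with a promoter element and those without had similar ranges. Of the 11 with an ERSE or ERSE-II, 3 were called in the F-test (Derl3, Dnajc3 and Herpud1), and the median range was 0.71, from 0.07 for Canx to 2.59 for Derl3. Of the 20 with a promoter and no match, 6 were called and the median range was 0.68. Over all genes tested 32.1% were called, and 14.9% at the members' abundance. In IL6Myc-1 the median log2 difference was -0.52 with an element and -0.29 without, and IL6Myc-1 was lowest without overlap for 9 of the 11 and 10 of the 20, against 13.5% of all genes. These counts describe the lists and were not tested.

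A companion list of 80 other ER pathway genes gave 76 that were expressed, of which 17 were called in the F-test (32.1% of all genes), with a median range of 0.56. By role, 8 of 21 other folding genes, 4 of 19 other degradation genes, 2 of 26 other translocation and glycosylation genes and 3 of 10 effectors of the stress response were called. Means in the order IL6Myc-1 to IL6Myc-5 are given for the 8 largest ranges. Ero1b, the oxidase that recharges disulfide isomerases in secretory cells, had 124, 411, 261, 208 and 264 CPM, with log2 differences by edgeR of -1.16 ± 0.04 (SE; adjusted p = 5.52e-14) in IL6Myc-1 and 1.0 ± 0.03 (SE; adjusted p = 4.17e-14) in IL6Myc-2. Those are the lowest and the highest line of P4hb. Qsox1, a sulfhydryl oxidase, had 36.5, 97.0, 59.8, 24.7 and 46.2 CPM, highest in IL6Myc-2 and lowest in IL6Myc-4. Fkbp14, an ER prolyl isomerase, was low throughout at 1.99, 6.57, 3.11, 3.14 and 3.54 CPM. Uggt2, a relative of the glycoprotein folding sensor, was near the cutoff of 1 CPM at 1.27, 1.28, 0.786, 2.06 and 0.583 CPM.

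Tusc3, an oxidoreductase subunit of oligosaccharyltransferase, had the largest range of that list, 2.55, with 25.8, 10.5, 16.2, 13.7 and 4.36 CPM. It was highest in IL6Myc-1. The remaining 3 of the 8 are effectors of the stress response. Ddit3, which encodes CHOP, a transcription factor downstream of PERK, had 14.7, 17.3, 8.03, 5.47 and 17.5 CPM. Trib3, a pseudokinase induced by CHOP and ATF4, had 33.9, 38.7, 8.36, 9.59 and 17.2 CPM, and Chac1, a glutathione-degrading enzyme induced by ATF4, had 79.6, 51.8, 31.6, 36.8 and 82.8 CPM. Both were lowest in IL6Myc-3, and Ddit3 was lowest in IL6Myc-4. The log2 difference of Trib3 by edgeR was 1.15 ± 0.05 (SE; adjusted p = 5.52e-12) in IL6Myc-1, where Eif2ak3 was lowest, and 1.40 ± 0.05 (SE; adjusted p = 4.7e-13) in IL6Myc-2, where Eif2ak3 was highest.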

How the data were processed

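RNA of 15 libraries was extracted with the RNeasy mini kit and sequenced, per the labels' protocols, after TruSeq Stranded Total RNA preparation. The submitters' processing notes list Trim Galore 0.4.0, DESeq2 (no version) and the build GRCm39, with aligner, quantifier and annotation not given in the sources used here.

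Although named for TPM, the deposited table does not hold that unit. Its values are taken as estimated counts that the authors deposited, since the columns sum to 19068543 to 41165599 and 30.8% to 54.3% of values above 0 and under 1.5 lie within 0.02 of 1. A length correction made upstream would remain in them. They were rounded to whole counts.

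Testing was limited to genes that reached 1 CPM in 3 or more libraries (11773, all 39 members included). edgeR 4.0.16 (R 4.3.3, limma 3.58.1) fitted a quasi-likelihood model with the line as factor, TMM sizes and Benjamini-Hochberg adjustment over all tested genes, for an F-test over the lines, 1 line against the 4 others averaged, and 10 pairs. Calls needed an adjusted p under 0.05 and a log2 difference of at least 1. Alternatives used DESeq2 1.42.0, limma, other scalings and filters, a replicate block and 1 library left out. The members and lists were chosen with earlier results of these data known. Values in every library are given for members called in the F-test or for a line and for the 3 with the smallest range, and of the companion list the 8 called genes with the largest ranges are named. The fit was tested on simulated data of 11392 genes (IL6Myc-1 against the rest). Of 100 genes given a 2-fold change, 95 reached significance in the right direction, and the rest had not passed the expression filter. Of these genes 49 were called, but a 2-fold change lies on the size threshold itself. Of 100 given a 4-fold change, 100 were called, and of 11197 unchanged genes, 0. The simulation gave all genes the same spread and changed few genes, equally often up and down. It therefore does not test the choice of scaling. Promoter windows and their coordinates come from RefSeq on GRCm38.p6, not the submitters' build. Transcript lengths come from GENCODE M21.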

Additional observations from a re-analysis of the deposited data

How the results depend on the processing

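The same 9 genes were called in the F-test under each other scaling, filter, test and block run, except library totals without TMM. Hsp90b1 joined them with DESeq2 size factors, in DESeq2 and without replicate 1 of IL6Myc-1. Over all genes the F-test called 3783, but 2449 with a filter of 5 CPM, where fewer genes were tested, 1595 in limma on log2(CPM + 5), and 5438 with no filter. Leaving out each library in turn gave 3650 to 3784 genes over all, 9 to 10 of the 39, and 19 to 20 calls summed over the 10 pairs, against 19 with all libraries. Library totals without TMM, an alternative chosen after seeing the data, called 7 of the 39 and 4259 of all genes, against 9 and 3783 with TMM. Sel1l (0.92), Herpud1 (0.85), Edem2 (0.91) and Ssr4 (0.77) dropped under the threshold, and Hsp90b1 and Ssr2 (both 1.01) passed it. That scaling called 1 gene higher in IL6Myc-2 in place of 2, and 12 in place of 19 over the pairs. Sel1l in IL6Myc-2 was 0.85 there. Counts and ranges cannot change sign. Of single genes, the log2 differences of Dnajc3 and Derl3 in IL6Myc-1 and of Derl3 and Sel1l in IL6Myc-2 were followed, and these kept their sign. The other members' log2 differences were not followed for sign. On library totals without TMM, the median log2 difference of the 39 in IL6Myc-2 went from 0.23 to -0.05. That of all genes went from -0.01 to -0.29. Deviations of same-numbered libraries of different lines were weakly correlated (30 correlations from -0.08 to 0.11, 1 over 0.1). The same number gave the highest correlation in 10 of the 30. Those between IL6Myc-4 and IL6Myc-5 (0.04, 0.09 and 0.08) were among these 10. Whether same-numbered libraries share a batch cannot be settled from such values. With the replicate number as a block, 9 of the 39 and 3785 of all genes were called. Every line is 1 culture sampled by technical libraries, which limits what the p-values cover. The least abundant of the 39 genes averaged 21.1 CPM.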

Other observations

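In IL6Myc-1, 7 of the 39 members had a positive log2 difference, as did 6 of 21 other folding genes, 5 of 19 other degradation genes, 7 of 26 other translocation genes and 7 of 10 stress effectors. Over all genes tested, 50.5% were positive in IL6Myc-1. The stress effectors had a positive median of 0.21 there. In IL6Myc-2, 7 of 10 stress effectors were positive as well, with a median of 0.20. In IL6Myc-3, IL6Myc-4 and IL6Myc-5, 0, 4 and 6 of the 10 were positive. Txndc5 and Man1b1 were among the companions with their highest level in IL6Myc-1. These companions were picked after their values were seen. Txndc5, a disulfide isomerase of the thioredoxin family that is strong in plasma cells, had 577, 292, 279, 314 and 289 CPM in the order IL6Myc-1 to IL6Myc-5. Man1b1, a mannosidase that acts in the quality control of glycoproteins, had 633, 305, 411, 411 and 326 CPM. In IL6Myc-1 the edgeR log2 difference was 0.98 ± 0.03 (SE; adjusted p = 6.6e-15) for Txndc5 and 0.82 ± 0.02 (SE; adjusted p = 3.24e-14) for Man1b1. Mzb1, a plasma cell cochaperone of GRP94 in antibody assembly, had 1249, 2721, 1779, 2147 and 2247 CPM, with the lowest level in IL6Myc-1.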
